A study of Mus musculus with 6 samples.

Results

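The genes described here encode the Golgi enzymes that begin, lengthen, branch and cap sugar chains on proteins and lipids. They were taken from the count table by name. Rows were kept whose Ensembl identifier maps to a protein-coding symbol of the families Galnt, Gcnt, B3gnt, B3galt, B4galt, B4galnt, Fut, St3gal, St6gal, St8sia, C1galt1 and Chst. This gave 78 of 28564 rows, which carry 77 symbols because St6galnac2 has 2 entries. The mm10 annotation holds 92 protein-coding genes with such names. Of these, 14 have no row in the count table, among them St6galnac1 and Chst5, so nothing is said of their levels. The rule itself uses names and no measured value.

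RNA came from crypt epithelial cells of the small intestine, and the comparison asks how their transcriptome differs when apelin is missing. The tested animals were Apln-/- mice (3 samples) and the others were wild-type C57Bl/6 mice (3 samples). All were male and 13 weeks old, and the labels name no tissue restriction for the deletion. Live single cells were sorted for EpCAM, which marks epithelium, and for CD44, which marks crypts. Cells bearing the endothelial protein CD31 or the leukocyte protein CD45 were left out. The labels call the 3 samples of a genotype biological replicates. Libraries are named here KO1 to KO3 and WT1 to WT3 by the replicate numbers in their titles; the deposited columns of KO2 and KO3 are headed KO3 and KO4.

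Apln itself had no count in any Apln-/- library, against 29, 7 and 5 counts in WT1, WT2 and WT3. Pooled over the libraries of a genotype, it was at least 10.2-fold lower in Apln-/- samples, with a floor of 3 counts for the Apln-/- group, and at least 4.22-fold lower with WT1 left out. The libraries held 23046880 to 26513481 counts, most of them in 5 entries led by the mitochondrial ribosomal RNAs. Outside these, 5144725 to 5623112 counts remained per Apln-/- library and 6037237 to 7616648 per wild-type library. Wild-type libraries were less alike over all genes (correlation of log2 CPM 0.910 to 0.922) than Apln-/- libraries (0.955 to 0.964). WT3 stood apart in the sum of 9 goblet markers. That sum was 5087 CPM in WT3 (read counts scaled to a common library size with TMM factors). It was 2318 to 2539 CPM in the 3 Apln-/- libraries and 1551 and 2525 CPM in WT2 and WT1. Not all 9 shared this, since Tff3, Spdef and Atoh1 were higher in WT1 than in WT3. Epcam and Cd44 together reached 359 to 389 CPM in Apln-/- libraries and 334 to 367 CPM in wild-type libraries. The 3 endothelial markers summed to 0.0461 to 0.797 CPM in Apln-/- libraries and to 0.221 to 1.43 CPM in wild-type libraries. In these bulk samples, fewer cells of a type and less RNA per cell cannot be told apart.

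Mucin-type O-glycans start with N-acetylgalactosamine (GalNAc) that a Galnt enzyme attaches to serine or threonine. Galactose or N-acetylglucosamine (GlcNAc) is then added to form a core, the core may branch, and alternating galactose and GlcNAc extend the chain. Fucose, sialic acid, GalNAc or sulfate cap the ends. In the intestine such chains make up most of the mass of secreted and membrane-bound mucins, and bacteria bind to and feed on them. Galactosyl-, fucosyl- and sialyltransferases of the same families also complete N-glycans and glycolipids, and some act on the linker of glycosaminoglycans.

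Regulatory sequence is printed for B4galnt2, because it was among the most abundant of these transcripts per length, and for B3gnt7, because it had the lowest p of the group. Each is the stretch of 250 bases before the RefSeq start (GRCm38.p6), read 5′ to 3′ on the strand of the gene, at chr11:95914872-95915121 (minus strand) for B4galnt2 and chr1:86302971-86303220 (plus strand) for B3gnt7. The gene annotation used for the count table places the starts elsewhere. By it the B3gnt7 stretch lies wholly inside the gene (chr1:86302832-86307305), and the B4galnt2 stretch overlaps the start of its gene (chr11:95865943-95914891). Which start these cells use was not tested. Capitals mark the GC box GGGCGG on either strand, a motif that Sp-family factors are known to bind.
B4galnt2: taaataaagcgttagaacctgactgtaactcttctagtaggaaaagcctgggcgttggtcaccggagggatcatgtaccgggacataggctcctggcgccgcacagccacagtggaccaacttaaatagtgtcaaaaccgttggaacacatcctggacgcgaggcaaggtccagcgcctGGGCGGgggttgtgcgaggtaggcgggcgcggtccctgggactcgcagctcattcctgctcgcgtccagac
B3gnt7: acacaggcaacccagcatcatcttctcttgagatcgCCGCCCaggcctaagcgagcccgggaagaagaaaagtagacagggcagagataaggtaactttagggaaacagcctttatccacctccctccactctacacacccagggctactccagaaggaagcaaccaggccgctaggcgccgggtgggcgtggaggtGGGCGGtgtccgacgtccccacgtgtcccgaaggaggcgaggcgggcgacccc

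The GC box was found 1 time in the B4galnt2 stretch and 2 times in the B3gnt7 stretch. Across 59 matched symbols, 43 of 79 promoters (54.4%) held it, against 32.7% of all 32851 promoters in the table. That gap was absent when the comparison was limited to genes measured above the count filter: 49.1% of 55 promoters of the enzyme genes held the GC box, against 56.8% of 12117 promoters of protein-coding genes that passed the same filter. The TATA box TATAAA was present in 1 of those 55 promoters (1.82%), against 6.74% of the 12117. The homeobox motif TTTATG, of the kind that Cdx factors bind, was present in 9.09% against 6.07%, and the E-box CAGCTG in 12.7% against 11.8%. Both strands were searched, no motif contains another, and a match is a description of sequence only.

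None of the enzyme genes passed the test between genotypes. Of the 78 rows, 52 had enough counts to be tested, and 0 of these 52 reached a Benjamini-Hochberg adjusted p under 0.05 in the quasi-likelihood test of edgeR. Among all 15122 genes tested, 26 did (0.172%). Unadjusted p-values under 0.05 were found for 4 of the 52 (7.69%), against 15.2% of all genes: B3galt4 with a higher estimate in Apln-/- cells (1 of 52, or 1.92%, against 7.53% of all genes), and B3gnt7, B4galt7 and Chst15 with lower ones (5.77%, against 7.66%). The number of such genes was 2 with KO1 or KO3 left out and 9 with WT1 or WT3 left out. The share of all genes at that p was not counted for these settings. In the DESeq2 Wald test, 1 of the 52 passed at an adjusted p under 0.05, B3gnt7, as did 3.84% of all genes.

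Estimates lay below 0 more often than above it. The log2 fold change (Apln-/- over wild type) was negative for 36 of the 52 genes (69.2%), against 50.5% of all genes, and its median was -0.18 against -0.01. Fut1 passed the count filter through wild-type libraries alone. The 3 libraries of each genotype did not overlap for 7 genes. Galnt5, B3gnt7, B4galt7, Fut1 and Fut8 were lower in every Apln-/- library (9.62% of the 52, against 9.56% of all genes), and B3galt4 and Gcnt2 were higher in every one (3.85%, against 11.3%). Without Fut1, 4 of 51 (7.84%) were lower in every Apln-/- library, and 35 of 51 (68.6%) had a negative estimate.

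The precision differed greatly between genes. The 95% interval of the fold change stayed within 2-fold in either direction for 31 of the 52 and within 1.5-fold for 9. An estimated change of more than 2-fold was found for 7 of the 52 (13.5%), a share that was not set against all genes. B3gnt7, B3galt5, Fut1, Gcnt1, Chst15 and B3gnt9 had negative estimates and B3galt4 a positive one. Their counts were at most 384 in a library, reached by B3gnt7 in WT2. The plot of fold changes shows these long intervals beside the short ones of abundant genes.

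**Figure D1:**
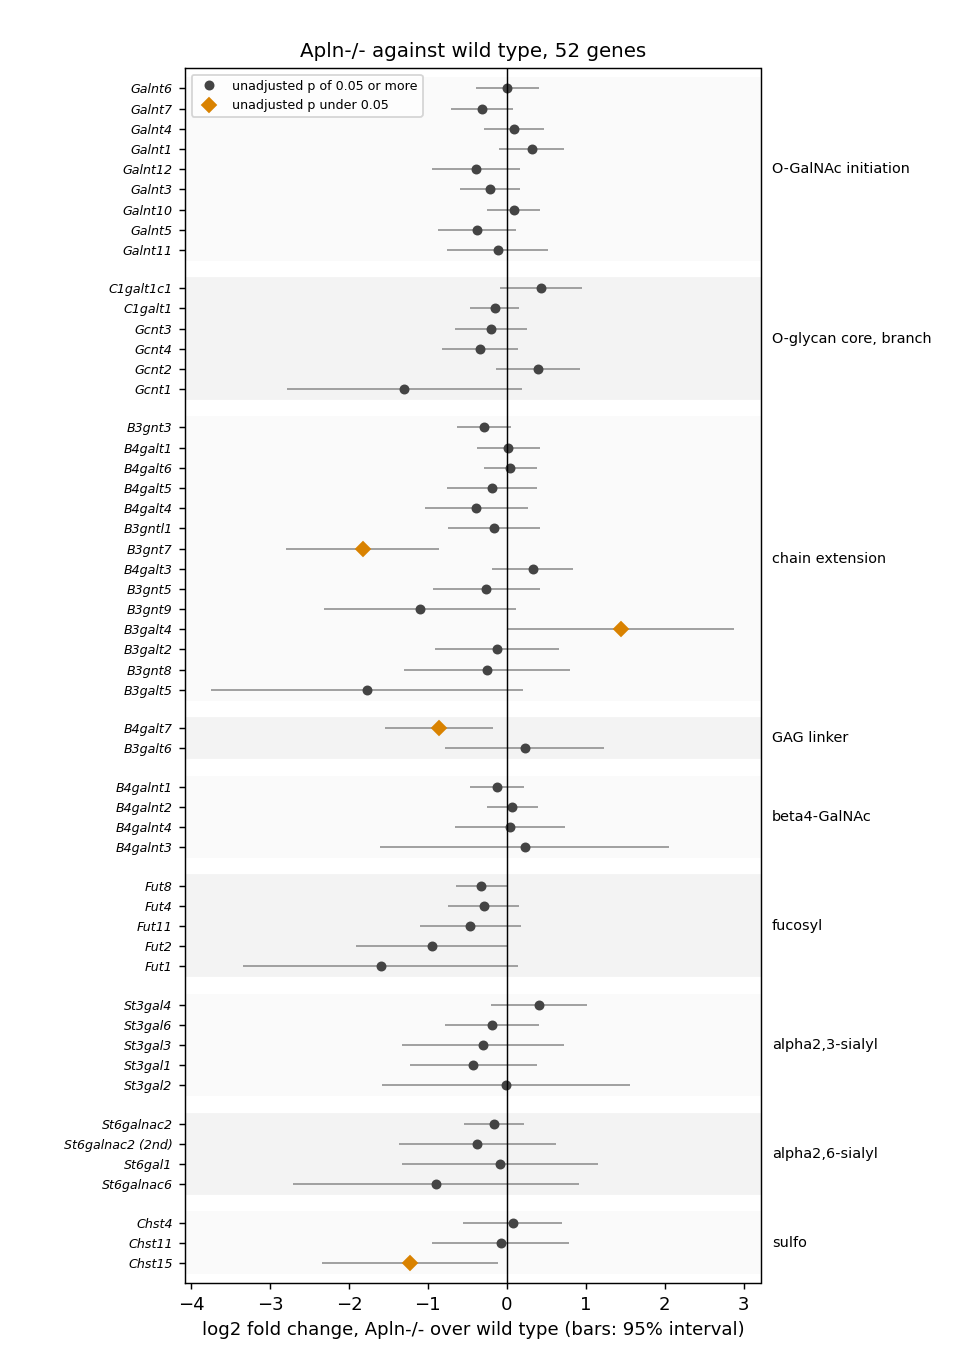
Log2 fold change (Apln-/- over wild type) with its 95% interval for the tested glycan synthesis genes, ordered by role. The intervals of abundant genes such as B4galnt2 are short and span 0, and that of B3gnt7 (-1.83) lies wholly below 0 although its adjusted p was 0.0971 in edgeR.

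Fold changes of all genes varied with transcript length. The 52 genes had a median transcript length of 3934 bases, against 3010 over the whole table of tested genes. Medians of log2 fold change over all genes ran from 0.25 in the shortest eighth to -0.19 in the longest. With each enzyme gene given the median of all genes in its own length eighth, the median of those values was -0.08. The enzyme genes' own medians rested on 2 to 15 genes each, too few to show a trend with length or its absence. From the second-shortest eighth to the longest they were 0.25, -0.25, -0.95, -0.06, -0.18, -0.25 and -0.14, over 4, 6, 7, 6, 15, 12 and 2 genes. After a correction for length and GC content, the median of the enzyme genes was -0.10 and that of all genes 0.01.

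**Figure D2:**
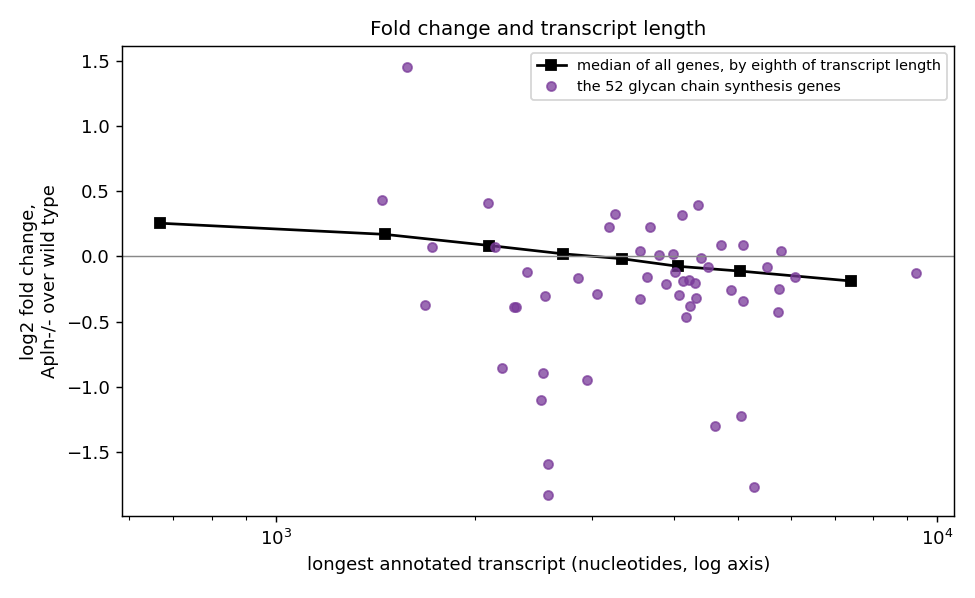
Log2 fold change (Apln-/- over wild type) against transcript length on a log axis, with the glycan synthesis genes over the medians of all genes by length eighth. The medians of all genes fall from 0.25 to -0.19 with length, and none of the enzyme genes lies in the shortest eighth.

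Summed over all 78 rows, the level was 717, 828 and 733 CPM in KO1 to KO3 and 816, 790 and 828 CPM in WT1 to WT3. These sums overlapped between genotypes. The 3 rows with most counts in a library made up 25.9% to 30.1% of them. At least 1 count was found for 66, 71 and 69 of the 78 rows in the Apln-/- libraries and for 60, 62 and 61 in the wild-type libraries. Over all genes, 22391 to 22956 had a count in Apln-/- libraries and 20655 to 21442 in wild-type libraries.

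Levels between genes are compared as CPM per kilobase of exon. The order was led by a pair of GalNAc transferases. B4galnt1, which makes the gangliosides GM2 and GD2, stood at 29.7 ± 3.81 CPM per kilobase in Apln-/- cells and 32.4 ± 3.88 in wild-type cells (SD, n = 3 each). B4galnt2, which caps chains to form the Sda antigen, stood at 30.1 ± 2.04 in Apln-/- cells and 28.6 ± 3.87 CPM per kilobase in wild-type cells. By this length these 2 did not differ from each other beyond their spread. B3gnt3 followed at 16.7 CPM per kilobase over all libraries, then Galnt6 (12.1), St3gal4 (11.8), C1galt1c1 (11.5), Galnt7 (9.83), Galnt4 (8.35), C1galt1 (7.39) and B4galt1 (5.44). Galnt6, St3gal4 and C1galt1c1 were within each other's spread. With the longest transcript in place of all exons as the length, 9 of the 10 leading genes were shared. B4galnt1 then stood above B4galnt2, at 44.8 and 29.4 CPM per kilobase over all libraries.

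**Figure D3:**
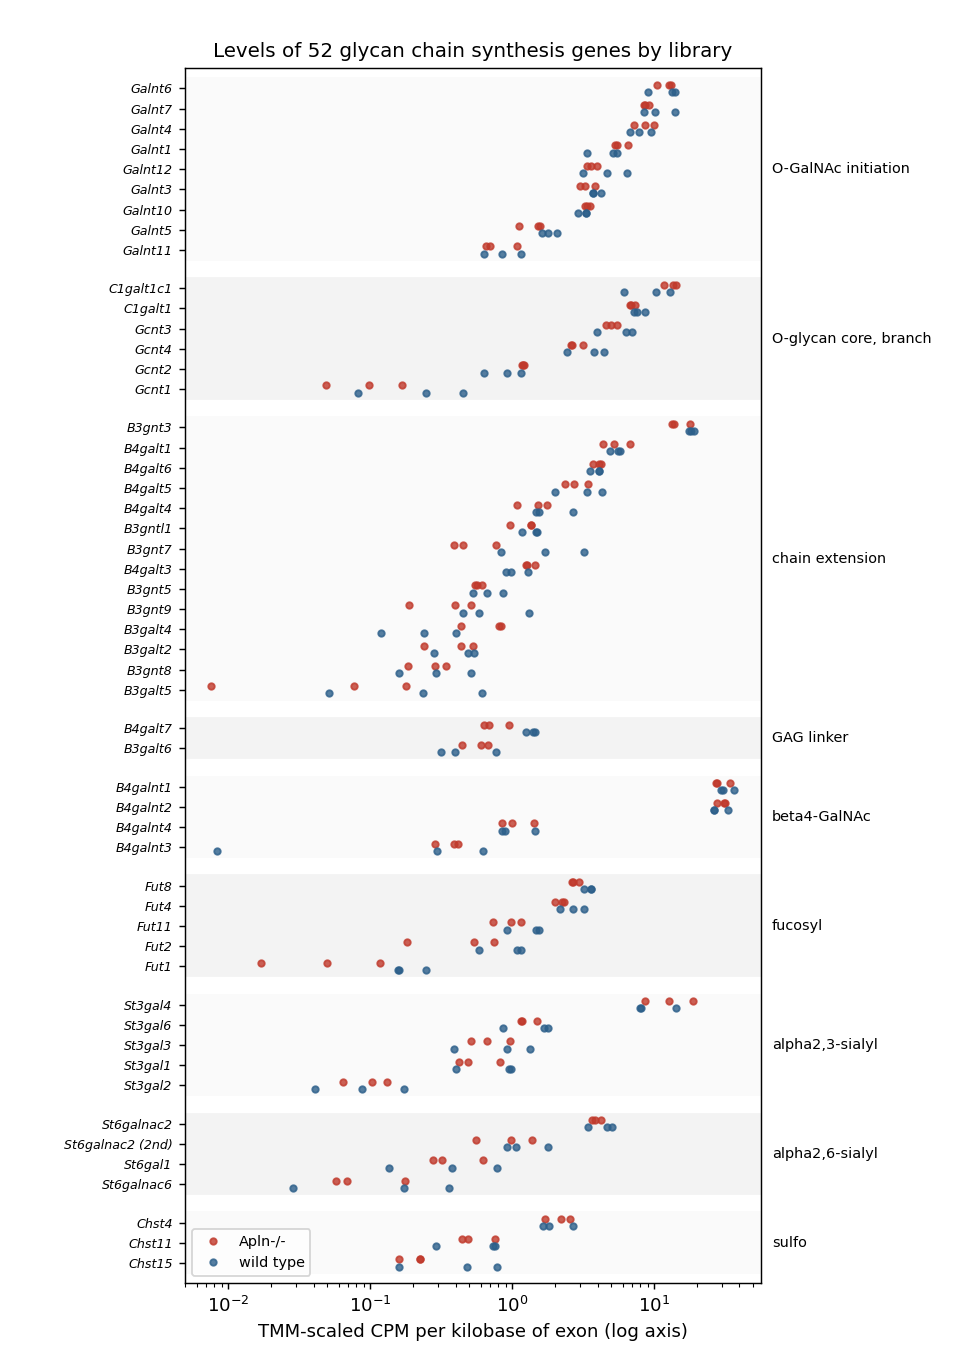
Level of the 52 tested glycan synthesis genes in CPM per kilobase of exon on a log axis, with a point for each library and Apln-/- drawn above wild type. B4galnt1 and B4galnt2 lead at about 30 in both genotypes, and points of the genotypes intermix for most genes.

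The initiating enzymes set where chains start. Of 15 Galnt rows, 9 were tested, 4 with positive and 5 with negative estimates, and their median log2 fold change was -0.12. Together the 15 amounted to 215, 240 and 218 CPM in KO1 to KO3 and to 254, 190 and 254 CPM in WT1 to WT3, and WT2 lay below all others. Galnt6, a close relative of Galnt3, had 40.7, 49.4 and 51.3 CPM in Apln-/- libraries, against 51.5, 35.0 and 54.1 CPM in wild-type libraries. Its fold change was 1.01 with a 95% interval of 0.764 to 1.32. Galnt7, which acts mainly on peptides that already carry GalNAc, had 45.2, 48.3 and 44.5 CPM in Apln-/- libraries, against 73.5, 44.8 and 53.6 CPM in wild-type libraries. The high WT1 value set the estimate apart from 0 (log2 fold change -0.32, and -0.11 at the least with 1 library left out).

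Galnt4, likewise active on prepared glycopeptides, had 43.8, 50.8 and 36.7 CPM in Apln-/- libraries, against 40.2, 34.7 and 48.8 CPM in wild-type libraries. Galnt3, known for glycosylating the phosphate hormone FGF23, had 14.2, 16.8 and 13.1 CPM in Apln-/- libraries, against 16.3, 16.3 and 18.4 CPM in wild-type libraries. For Galnt12, which is found mainly in the digestive tract, the values were 9.14, 7.66 and 8.22 CPM in Apln-/- libraries, against 10.7, 7.20 and 14.8 CPM in wild-type libraries. The groups overlapped for all of these. Galnt5 was the one tested initiating gene without overlap, at 5.03 to 7.04 CPM in Apln-/- libraries and 7.27 to 9.30 CPM in wild-type libraries, and its p was 0.124 before adjustment in edgeR. The broadly expressed Galnt1 and Galnt10 had fold changes of 1.24 and 1.06, and Galnt11 of 0.922. The other 6 Galnt rows had at most 14 counts over the 3 libraries of a genotype.

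Core 1 synthesis needs an enzyme and its chaperone, and both were well counted. C1galt1, the enzyme that adds galactose to form core 1, had 41.5, 44.4 and 41.9 CPM in Apln-/- libraries, against 52.5, 45.9 and 44.0 CPM in wild-type libraries. Its fold change was 0.898 (95% interval 0.725 to 1.11). C1galt1c1 encodes Cosmc, the chaperone without which C1galt1 is not active. Its values were 19.8, 20.8 and 17.1 CPM in Apln-/- libraries, against 18.9, 8.92 and 14.9 CPM in wild-type libraries, so that only WT1 reached the Apln-/- range, and the fold change was 1.35 (0.939 to 1.94). B3gnt6, the core 3 enzyme, had 4 counts in KO3 and none in KO1 and KO2, against 9 counts in WT2 and none in WT1 and WT3. A difference in B3gnt6 was not detectable at this depth.

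Among branching enzymes, the mucin-type Gcnt3, which makes core 2 and core 4 branches, was well above Gcnt1, the leukocyte-type core 2 enzyme (5.41 and 0.182 CPM per kilobase over all libraries). Gcnt3 had 21.5, 19.7 and 23.7 CPM in Apln-/- libraries, against 27.3, 17.0 and 30.3 CPM in wild-type libraries. Gcnt4, a further core 2 enzyme, had 13.3, 16.1 and 13.4 CPM in Apln-/- libraries, against 12.4, 19.1 and 22.5 CPM in wild-type libraries. Both had estimates below 0 (log2 fold change -0.20 and -0.34) and groups that overlapped. Gcnt1 counts were 6, 21 and 12 in Apln-/- libraries and 12, 75 and 45 in wild-type libraries, and WT1 lay within the Apln-/- range. Gcnt2, the I-branching enzyme, had 8.22 to 8.58 CPM in Apln-/- libraries and 4.48 to 8.17 CPM in wild-type libraries, with WT3 just under the lowest Apln-/- value.

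Chain extension held the lowest p of the 52 genes. Of 18 rows, 14 were tested, 4 with positive and 10 with negative estimates, and the median log2 fold change was -0.22. The group includes B3gnt5, B3galt4, B4galt5 and B4galt6, described below as enzymes of glycolipids. B3gnt7 (ENSMUSG00000079445, chr1:86302832-86307305, plus strand) adds GlcNAc to growing chains and is known for extending keratan sulfate and sulfated lactosamine. It had 1.88, 3.18 and 1.61 CPM in Apln-/- libraries, from 40, 69 and 34 counts. In wild-type libraries it had 3.45, 13.2 and 7.0 CPM, from 87, 384 and 222 counts. Every Apln-/- value was below every wild-type value, and KO2 came close to WT1.

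The log2 fold change of B3gnt7 was -1.83 ± 0.44 (SE), or 0.282-fold with a 95% interval of 0.145 to 0.549, and its adjusted p was 0.0971 in edgeR with Benjamini-Hochberg adjustment. Its adjusted p was 0.00206 in the DESeq2 Wald test, which called 3.84% of all genes, and 0.195 in limma-voom, which called 0.37%. With no count filter edgeR gave B3gnt7 an adjusted p of 5.26e-06 and called 2.2% of all genes. Leaving out 1 library at a time gave adjusted p-values of 0.0676 to 0.424 in edgeR and log2 fold changes of -2.19 to -1.25, the smallest without WT2. The antisense gene Gm28626 shares 12.6% of the exon bases of B3gnt7 and had at most 5 counts in a library.

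Beside B3gnt7, marker sums of 3 crypt cell types were apart between genotypes, though 0 of their markers passed the test. The 7 Paneth markers summed to 1075 to 2557 CPM in Apln-/- libraries and to 644 to 1014 CPM in wild-type libraries. The 6 enteroendocrine markers summed to 428 to 584 CPM in Apln-/- libraries, against 728 to 986 CPM in wild-type libraries. The 6 tuft markers summed to 25 to 60.9 CPM in Apln-/- libraries, against 74.3 to 97.7 CPM in wild-type libraries. None of these 3 sums overlapped between genotypes. Of all single genes tested, 20.9% did not overlap. Most of the Paneth sum was Lyz1, with 1577, 633 and 994 CPM in KO1 to KO3, against 588, 384 and 431 CPM in WT1 to WT3. Most single markers of these 3 types overlapped between genotypes. These were Defa17, Defa24, Itln1, Mmp7 and Ang4 of Paneth cells, Cck, Neurod1 and Sct of enteroendocrine cells, and Avil, Gnat3 and Ptgs1 of tuft cells. Of the 9 goblet markers only Spdef and Atoh1 did not overlap, both lower in Apln-/- libraries. Goblet sums overlapped, as did those of 5 stem cell markers (652 to 1308 CPM in Apln-/- and 622 to 956 CPM in wild type) and 7 enterocyte markers (363 to 584 CPM in Apln-/- and 374 to 547 CPM in wild type). The 5 immune markers found reached 10.3 to 17.9 CPM in Apln-/- libraries and 13.5 to 22.8 CPM in wild-type libraries, and the 5 stromal markers 7.78 to 16.4 CPM in Apln-/- libraries and 1.07 to 29.3 CPM in wild-type libraries. No marker was at 0 in all libraries. The part of cell makeup in the values of B3gnt7 or of any other enzyme gene was not tested.

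B3gnt3, which extends core 1 chains, was the most abundant extension gene per length. Its values were 40.6, 54.8 and 42.3 CPM in Apln-/- libraries, against 56.1, 54.0 and 58.1 CPM in wild-type libraries, and KO2 fell among the wild-type values (fold change 0.818, 95% interval 0.647 to 1.03). B4galt1, the main galactosyltransferase of lactosamine chains, had 22.1, 28.8 and 18.6 CPM in Apln-/- libraries, against 24.4, 20.6 and 23.7 CPM in wild-type libraries. B3galt5, which makes type 1 chains, varied from 1 to 24 counts in Apln-/- libraries and from 8 to 120 counts in wild-type libraries. Its interval, 0.0748-fold to 1.16-fold, was among the widest.

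Several of these transferases work on glycolipids. Lactosylceramide is made by B4galt5 and B4galt6, and B3gnt5 turns it towards lacto-series lipids. B4galt6 had 21.6, 23.9 and 24.7 CPM in Apln-/- libraries, against 23.8, 23.7 and 20.6 CPM in wild-type libraries, a fold change of 1.03 (95% interval 0.817 to 1.30). B4galt5 and B3gnt5 had fold changes of 0.880 and 0.836. B4galnt1 (chr10:127165225-127172330) then had 96.6, 118 and 93.8 CPM in Apln-/- libraries, against 105, 127 and 103 CPM in wild-type libraries (fold change 0.919, 95% interval 0.726 to 1.16). B3galt4, the next step, which makes the ganglioside GM1, was scarce, with 28, 15 and 27 counts in Apln-/- libraries and 16, 11 and 6 counts in wild-type libraries. These were 1.31, 0.692 and 1.28 CPM in Apln-/- libraries, against 0.635, 0.379 and 0.189 CPM in wild-type libraries, and KO2 came closest to WT1. The log2 fold change of B3galt4 was 1.45 ± 0.66 (SE), with an adjusted p of 0.324 in edgeR with Benjamini-Hochberg adjustment.

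The other β4-GalNAc transferases had close means in the 2 genotypes. B4galnt2 (chr11:95865943-95914891, minus strand), whose start is shown above, had 53.5, 54.2 and 47.8 CPM in Apln-/- libraries, against 45.2, 57.0 and 45.7 CPM in wild-type libraries. Its fold change was 1.05 with a 95% interval of 0.837 to 1.32, and WT2 was above all Apln-/- libraries. B4galnt4, which makes LacdiNAc ends, had 3.28, 5.49 and 3.87 CPM in Apln-/- libraries, against 3.25, 5.61 and 3.44 CPM in wild-type libraries. Replicate 2 was the highest of each genotype. B4galnt3, of the same activity, had 23, 34 and 31 counts in Apln-/- libraries and 28, 69 and 1 counts in wild-type libraries, so that its fold change was uncertain from 0.329 to 4.17. Part of B4galnt1 (20.7% of exon bases) is shared with Slc26a10 on the opposite strand, and part of B4galnt2 (15.3%) with the antisense gene Gm11534. Slc26a10 had 20.2 to 26.8 CPM in Apln-/- libraries and 26.3 to 29.5 CPM in wild-type libraries, and Gm11534 had 13.3 to 16.6 CPM in Apln-/- libraries and 12.6 to 15.2 CPM in wild-type libraries. Whether the counting used strand is not stated in the labels.

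The galactosyltransferases B4galt7 and B3galt6 build the linker that joins glycosaminoglycans to their proteins. B4galt7, the first of them, had 1.83, 2.77 and 1.98 CPM in Apln-/- libraries, against 3.65, 4.10 and 4.19 CPM in wild-type libraries. The groups were well separated, and the fold change was 0.552 (95% interval 0.343 to 0.888). Its adjusted p was 0.231 in edgeR with Benjamini-Hochberg adjustment, at 39 to 60 counts in Apln-/- libraries and 92 to 133 in wild-type libraries. B3galt6, which adds the next galactose, had 2.16, 1.94 and 1.42 CPM in Apln-/- libraries, against 2.46, 0.999 and 1.26 CPM in wild-type libraries, with no common direction.

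Fucosyltransferases were the role group with the lowest median, -0.46 on the log2 scale over 5 tested of 7 rows. All 5 estimates were negative and none passed the test. Without Fut1, which passed the count filter through wild-type libraries alone, the median of the other 4 was -0.39. Summed CPM of the 7 were 36.1, 37.9 and 39.3 in KO1 to KO3 and 47.5, 54.6 and 46.7 in WT1 to WT3. The genotypes did not overlap in this sum. Nor did they in the sum of the 2 linker genes, at 3.40 to 4.71 CPM in Apln-/- libraries and 5.10 to 6.11 CPM in wild-type libraries. For comparison, 20.9% of all single genes tested did not overlap. Most of the fucosyltransferase sum was Fut8, which adds the core fucose of N-glycans. Fut8 (chr12:77238125-77476338) had 23.4, 21.2 and 21 CPM in Apln-/- libraries, against 28.3, 28.6 and 25.3 CPM in wild-type libraries. This modest shift, 0.799-fold with a 95% interval of 0.638 to 1.00, had an adjusted p of 0.332 in edgeR with Benjamini-Hochberg adjustment.

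Fut2, the secretor enzyme that puts the terminal fucose of the H antigen on intestinal chains, had 0.985, 2.91 and 4.06 CPM in Apln-/- libraries, against 5.91, 6.27 and 3.19 CPM in wild-type libraries. KO3 was above WT3, and the estimate was 0.519-fold (0.265 to 1.01). Fut1, with the same activity, was scarcer, with 7, 3 and 1 counts in Apln-/- libraries and 11, 13 and 22 in wild-type libraries. Fut4, which attaches fucose to inner GlcNAc as in Lewis x, had 8.21, 9.46 and 9.21 CPM in Apln-/- libraries, against 8.93, 13.0 and 11 CPM in wild-type libraries. Fut11, a distant member of the same family, had 3.10, 4.15 and 4.91 CPM in Apln-/- libraries, against 3.93, 6.27 and 6.56 CPM in wild-type libraries. For Fut4 and Fut11, WT1 lay inside the Apln-/- range. Fut7 and Fut10 had 1 count each in Apln-/- libraries and none in wild-type libraries.

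**Figure D4:**
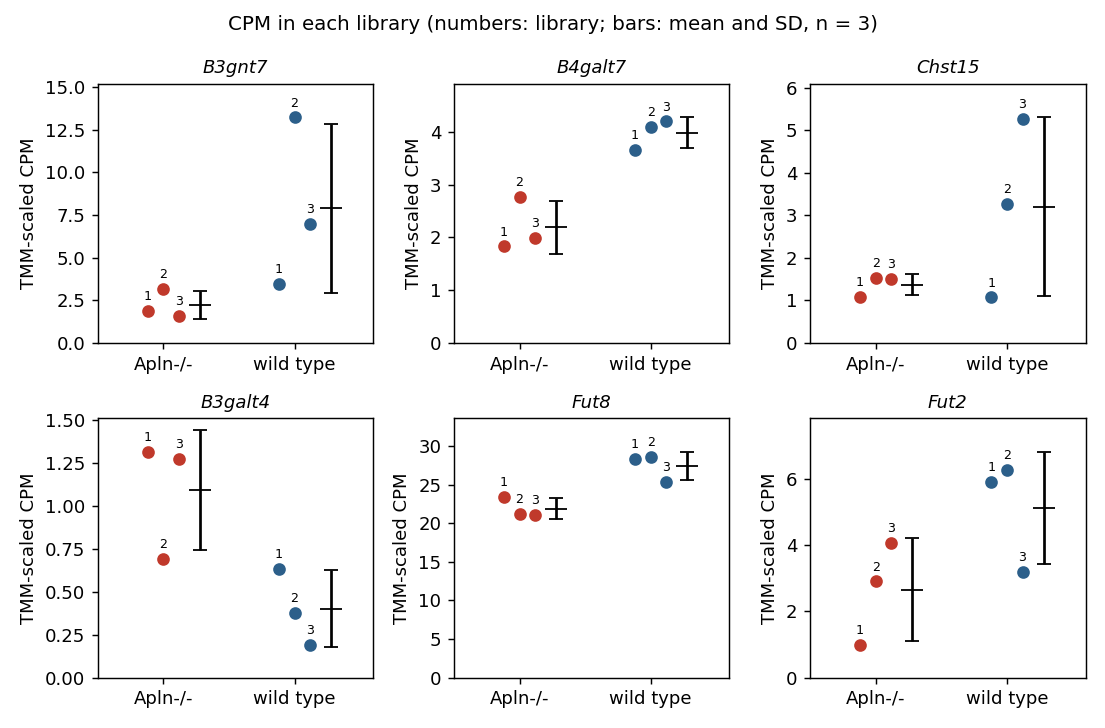
Level of B3gnt7, B4galt7, Chst15, B3galt4, Fut8 and Fut2 in each library, in CPM, with the 3 Apln-/- libraries left of the 3 wild-type libraries and bars for mean and SD. B3gnt7, B4galt7 and Fut8 have all Apln-/- points below all wild-type points, B3galt4 has them above, and for Chst15 and Fut2 the points overlap.

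Sialyltransferases end chains with sialic acid. The 5 of the α2,3 type that have a row in the count table were all tested, with 1 positive and 4 negative estimates. St3gal4, which acts on lactosamine ends, had 25.3, 55.3 and 37.4 CPM in Apln-/- libraries, against 23.6, 23.4 and 41.9 CPM in wild-type libraries. The spread within each genotype was as wide as the gap between their means (39.3 ± 15.1 CPM in Apln-/- cells and 29.6 ± 10.6 CPM in wild-type cells, SD, n = 3 each). St3gal6, of like activity, had 9.24, 7.15 and 7.23 CPM in Apln-/- libraries, against 11.1, 5.34 and 10.4 CPM in wild-type libraries. St3gal1, which caps core 1, had 3.33, 2.91 and 5.62 CPM in Apln-/- libraries, against 6.71, 6.47 and 2.74 CPM in wild-type libraries. WT3 was the lowest library for St3gal1. St3gal3 had 1.43 to 2.67 CPM in Apln-/- libraries and 1.07 to 3.73 CPM in wild-type libraries.

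Of the α2,6 type, St6galnac2, which sialylates the GalNAc at the base of O-glycans, was the most abundant per length. It had 21.1, 22.3 and 24.5 CPM in Apln-/- libraries, against 26.8, 29.2 and 19.9 CPM in wild-type libraries. Its second entry, which shares 22.8% of its exon bases with the first, had 0.938 to 2.32 CPM in Apln-/- libraries and 1.55 to 3.03 CPM in wild-type libraries. St6gal1, which sialylates galactose on N-glycans, had 3.05, 1.57 and 1.37 CPM in Apln-/- libraries, against 3.85, 1.86 and 0.662 CPM in wild-type libraries. Replicate 1 was the highest in both genotypes for St6gal1. The α2,8 enzymes build oligo- and polysialic acid, and the 4 that have a row in the count table were all below the count filter. St8sia3 had 1 count in Apln-/- libraries against 24 in wild-type libraries, all in WT2, and St8sia6 had 3 against 18, with 17 of these in WT1.

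Of 8 sulfotransferases 3 were tested. Chst4, which sulfates GlcNAc, had 5.02, 3.88 and 5.81 CPM in Apln-/- libraries, against 6.11, 3.75 and 4.13 CPM in wild-type libraries. Chst11, which sulfates chondroitin, had 4.17, 2.45 and 2.69 CPM in Apln-/- libraries, against 4.09, 4.17 and 1.61 CPM in wild-type libraries. Neither differed beyond the spread. Chst15, which adds a further sulfate to chondroitin, had 1.08, 1.52 and 1.51 CPM in Apln-/- libraries, against 1.07, 3.27 and 5.27 CPM in wild-type libraries. WT1 was the lowest library of all, and the Chst15 estimate of 0.427-fold (95% interval 0.198 to 0.924) had an adjusted p of 0.281 in edgeR with Benjamini-Hochberg adjustment. The keratan and GlcNAc sulfotransferase Chst2 had 14 counts in Apln-/- libraries and none in wild-type libraries, at least 6.25-fold higher on pooled CPM with a floor of 3 counts over the wild-type group.

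The 26 rows below the filter had at most 72 counts each over all libraries. Pooled CPM was higher in Apln-/- samples for 18 of them, against 59.7% of all genes below the filter. Beside Chst2, Chst13 was at least 2.68-fold higher and St6galnac3 at least 2.23-fold higher in Apln-/- samples by the same floor, from 6 and 5 counts. In KO1 to KO3 these counts were 0, 4 and 2 for Chst13 and 0, 1 and 4 for St6galnac3. The bounds are thus of pooled counts, and KO1 had no count of either gene, like the wild-type libraries. A low count is uncertain where exons are shared, since counting can leave reads that fall on 2 genes unassigned and the setting used is not stated. Galnt2, an enzyme known in most tissues, had 6 counts in Apln-/- libraries and 1 in wild-type libraries, and 90.0% of its exon bases lie in the same-strand entry Gm20388. B3gnt2 had 22 counts in Apln-/- libraries and 17 in wild-type libraries, and 66.0% of its exon bases lie in Gm28048. B3gnt4 had 15 counts in Apln-/- libraries and 9 in wild-type libraries, and 93.2% lie in Diablo on the opposite strand. At a share of 25% of exon bases or more, chosen after values were seen, 4 of 5 rows were below the filter, against 22 of 73 others.

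Replicates differed more in wild-type cells. The median coefficient of variation of the 52 genes was 19.2% in Apln-/- cells and 29.4% in wild-type cells, with the larger one in wild type for 39 genes. Over all genes it was 17.6% in Apln-/- cells and 25.7% in wild-type cells, with the larger one in wild type for 10205 of 15122. Across the 52 genes, log2 CPM of Apln-/- libraries correlated at 0.938 to 0.976 with one another, and that of wild-type libraries at 0.881 to 0.90. Between genotypes the range was 0.851 to 0.964. The genes are not independent replicates, so these values describe likeness only.

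The enzymes draw on sugar nucleotides and sulfate donors. Of 30 genes that make or carry these donors, 26 were tested, 0 passed the threshold, 15 had positive and 11 negative estimates, and the median log2 fold change was 0.18. Galk1, which phosphorylates galactose, had 5.53, 5.12 and 5.10 CPM in Apln-/- libraries, against 3.37, 1.58 and 3.53 CPM in wild-type libraries. Gnpnat1, of the UDP-GlcNAc pathway, averaged 15.9 ± 0.791 CPM in Apln-/- cells and 10.6 ± 3.16 CPM in wild-type cells (SD, n = 3 each). Slc35b2, which brings the sulfate donor into the Golgi, averaged 11 ± 0.337 CPM in Apln-/- cells and 7.39 ± 2.26 CPM in wild-type cells. For all 3 the genotypes did not overlap. Slc26a2, the sulfate importer, had 59.8, 61.9 and 62.9 CPM in Apln-/- libraries, against 89.3, 75.1 and 81.2 CPM in wild-type libraries. These 4 were the donor genes at unadjusted p under 0.05, 15.4% of the 26, against 15.2% of all genes. Of the 26, 7 were higher in every Apln-/- library (26.9%, against 11.3% of all genes) and 2 lower (7.69%, against 9.56%). The lowest adjusted p of the 4 was 0.199, for Slc26a2, in edgeR with Benjamini-Hochberg adjustment.

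Genes for sialic acid and fucose supply had estimates on both sides of 0. Gne, the first enzyme of sialic acid synthesis, averaged 30.7 ± 1.56 CPM in Apln-/- cells and 33.9 ± 2.65 CPM in wild-type cells (SD, n = 3 each). Slc35a1, the carrier of activated sialic acid, averaged 15 ± 1.68 CPM in Apln-/- cells and 13.2 ± 5.54 CPM in wild-type cells. Gmds, of GDP-fucose synthesis, averaged 41.3 ± 0.699 CPM in Apln-/- cells and 36.0 ± 5.83 CPM in wild-type cells, and the GDP-fucose carrier Slc35c1 46.1 ± 10.9 CPM in Apln-/- cells and 55.6 ± 7.14 CPM in wild-type cells. These 4 overlapped between genotypes. Nans, which makes sialic acid, was at 14.6 to 16.3 CPM in Apln-/- libraries and 10.6 to 13.9 CPM in wild-type libraries. Cmas, which activates it, was at 43.5 to 50.6 CPM in Apln-/- libraries and 52.6 to 54.6 CPM in wild-type libraries. Fpgt, of fucose salvage, was at 6.85 to 6.99 CPM in Apln-/- libraries and 5.58 to 6.67 CPM in wild-type libraries. The genotypes did not overlap for these 3, which were named after their values were seen, and none of the 7 genes passed the test.

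Mucins are the main carriers of O-glycans. All 5 tested mucin genes had negative estimates, with a median log2 fold change of -0.92, and Muc3a passed the threshold at an adjusted p of 0.046 in edgeR with Benjamini-Hochberg adjustment. Muc3a had 16.9, 17.9 and 21.8 CPM in Apln-/- libraries, against 35.2, 38.1 and 35.3 CPM in wild-type libraries. With 1 library left out, the adjusted p of Muc3a in edgeR was 0.0213 to 0.331 and under the threshold only without WT3. With all libraries it was 0.0501 with DESeq2 size factors, 0.0531 with upper-quartile scaling, 0.0518 without the 5 most abundant entries and 0.0835 with the length and GC correction, so that the call was lost under each. Muc2, the secreted mucin of goblet cells, had 416, 540 and 581 CPM in Apln-/- libraries, against 714, 520 and 1899 CPM in wild-type libraries. The difference between the mucin and the enzyme values was not tested.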

How the data were processed

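RNA from 6 sorted crypt samples was amplified with the Ovation Pico WTA kit and made into Nextera libraries, per the labels' protocols. The submitters' processing notes name STAR 2.6.1, HTSeq and mm10. Annotation release and strand setting were not given in the sources used here. Raw counts per gene, not normalized by the authors, were deposited, in 28564 rows, and 0 columns were without a sample. GENCODE names of the same build matched 28551 rows and left 13 without a symbol. The members and the lists were chosen with earlier results of these data known.

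The main test used edgeR 4.0.16 in R 4.3.3. Its filterByExpr (count minimum 10, total minimum 15) left 15122 genes, library sizes were scaled by TMM, and Apln-/- was compared with wild type by glmQLFit and glmQLFTest with genotype as the only term. Benjamini-Hochberg adjustment ran over all genes, with a threshold of 0.05. The common biological coefficient of variation was 0.298. The floor for a count of 0 was 3 counts (0.0946 to 0.142 CPM per library) and covers counting error only, since these reads carry no molecular identifiers. The fit was tested on simulated counts. No replicate pair agreed within sampling noise.

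Named with values are all enzyme genes at unadjusted p under 0.05 (up to 20), the 3 most abundant per length in each role group, and a list of known intestinal enzymes; genes named outside this rule, such as Galnt5, Gcnt2 and Chst2, were chosen after their values were seen. Alternatives were DESeq2 1.42.0, limma-voom (limma 3.58.1), other scalings and filters, leaving out the 5 most abundant entries, a length and GC correction (spline with 4 degrees of freedom), the replicate number as a block, and each library left out. Promoter sequences came from RefSeq.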

Additional observations from a re-analysis of the deposited data

How the results depend on the processing

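Against 26 genes changed over the whole table, 1 was called with DESeq2 size factors, with upper-quartile scaling, without the 5 most abundant entries and with the length and GC correction, while limma-voom called 56, a filter of 1 CPM in 3 libraries 117, the DESeq2 Wald test 581 and no filter 629. Leaving out 1 library gave 0 to 358 calls, the most without WT3. Enzyme genes called were 1 instead of 0 with no filter, in the DESeq2 Wald test and with the replicate block, each time B3gnt7. Enzyme genes at unadjusted p under 0.05 were 11 with no filter and 7 in the DESeq2 Wald test instead of 4, and 2 to 9 with 1 library left out. These numbers were not set against the share of all genes under each setting.

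The median log2 fold change of the enzyme genes, -0.18, was -0.12 with no filter and -0.10 with the length and GC correction, and -0.26 to -0.13 with 1 library left out. That of chain extension genes, -0.22, was -0.092 after the correction and -0.30 to -0.086 with 1 library left out. With 1 library left out, fucosyltransferase medians were -0.67 to -0.37 and sulfotransferase medians -0.41 to 0.10. The cause of these shifts was not tested.

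Replicate numbers did not clearly pair the samples, since deviations of same-numbered libraries correlated only at 0.0406, 0.0570 and 0.0109. KO1 and KO2 correlated best with the wild-type library of the same number, and KO3 with WT1 (0.0169). With the replicate block 173 genes were called, 44 with the length and GC correction in the block fit. B3gnt7 had an adjusted p of 0.0307 in the block fit in edgeR, and the median of the enzyme genes was -0.077 with block and correction.

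Over 35 named genes, 518 of 557 log2 fold changes under the alternatives kept sign and side of the threshold, 3 (B3gnt7) passed it and 36, over 11 genes, changed sign, none of them called. B4galnt2 was -0.046 with the length and GC correction and -0.036 with the block added. St6gal1 was 0.051 and 0.24 under these, 0.11 with the block alone, 0.23 in limma-voom and -0.52 to 0.65 with 1 library left out. Chst11 was 0.10 and 0.16 under the correction without and with the block, 0.041 in limma-voom and -0.41 to 0.13 with 1 library left out. Galnt6 was -0.0086 with DESeq2 size factors and in the DESeq2 Wald test, -0.0051 without the 5 most abundant entries, and -0.17 to 0.13 with 1 library left out. B4galt1 was -5.3e-05 with the block and -0.16 to 0.16 with 1 library left out. Leaving out 1 library gave -0.66 to 0.12 for St3gal3, -0.067 to 0.30 for Chst4, -0.019 to 0.68 for B3galt6, -0.19 to 0.32 for B4galnt4, -0.017 to 0.10 for B4galt6 and -0.033 to 0.23 for Galnt4.

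B3galt4, Fut1 and Gcnt1 rest on under 100 counts a library.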
